A study of Mus musculus with 3 samples.

Results

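The mouse solute carrier genes other than the Slc25 mitochondrial carriers are described here in cultured macrophages as they become osteoclasts, the large multinucleated cells which dissolve bone. Members were all genes whose symbol begins with Slc and a number, without Slc25, on array features (probe sets) that name a single gene. This gave 229 of 12393 genes, on 354 of 20380 such probe sets. Bone marrow of C57/BL6 mice spent 3 days in 50 ng/ml of human M-CSF, the growth factor under which marrow cells become macrophages. Human RANKL at 150 ng/ml, the cytokine that drives osteoclast formation, was then given for 0, 24 or 72 h, and each time was measured on 1 Affymetrix array. By the labels, the 0 h culture is the precursor, the 24 h culture a differentiating precursor and the 72 h culture the osteoclast. All 3 cultures had M-CSF before RANKL, and no culture kept for 24 or 72 h without RANKL was analysed here, so RANKL and time in culture cannot be told apart. The sex and age of the mice and whether animals were pooled are not given in the sources used here.

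Solute carriers are membrane proteins that move small molecules down their own gradient or along with another ion. They decide which amino acids, sugars, metals, nucleosides and organic acids enter or leave a cell, and many of them work on lysosomes, synaptic-type vesicles or the endoplasmic reticulum. In osteoclasts the anion exchanger Slc4a2 gives bicarbonate out in exchange for chloride while protons are pumped onto bone. Macrophages use Slc11a1 to take metals out of phagosomes and Slc40a1 to export iron recovered from red cells. The name of the family does not fix the place or the function of every member. Slc8b1 works in mitochondria, most Slc35 proteins in the Golgi or endoplasmic reticulum, and 3 members (Slc9a3r1, Slc9a3r2 and Slc4a1ap) are named after a carrier without being one.

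The upstream sequences of 4 members are shown because they stand for the time courses described below and because the promoter table lists a single start for each. They are the 250 bases before the start, 5′ to 3′ on the gene's strand, from RefSeq on GRCm38.p6. Slc9b2 and Slc37a2 were higher at each step, Slc6a4 was highest at 24 h, and Slc11a1 was lower after 0 h. Capitals mark matches to 4 short motifs searched on both strands, AP-1 (TGANTCA), the E-box of MiT factors (CACGTG), PU.1 (GAGGAAGT) and NFAT (GGAAA). No motif overlaps another in these windows.
Slc9b2: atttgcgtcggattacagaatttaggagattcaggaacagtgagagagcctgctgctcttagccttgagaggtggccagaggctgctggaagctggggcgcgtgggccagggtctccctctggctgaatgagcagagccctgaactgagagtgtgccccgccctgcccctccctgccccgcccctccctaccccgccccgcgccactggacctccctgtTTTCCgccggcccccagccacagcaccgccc
Slc37a2: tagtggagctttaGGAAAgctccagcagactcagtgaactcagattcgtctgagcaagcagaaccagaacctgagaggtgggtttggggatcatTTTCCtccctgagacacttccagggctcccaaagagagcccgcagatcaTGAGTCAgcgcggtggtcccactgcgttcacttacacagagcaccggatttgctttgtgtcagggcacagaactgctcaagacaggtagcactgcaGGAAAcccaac
Slc6a4: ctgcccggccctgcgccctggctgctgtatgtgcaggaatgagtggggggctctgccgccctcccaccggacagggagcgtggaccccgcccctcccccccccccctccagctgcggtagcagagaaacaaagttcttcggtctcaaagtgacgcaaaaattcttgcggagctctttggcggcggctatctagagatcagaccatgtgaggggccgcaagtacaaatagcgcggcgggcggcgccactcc
Slc11a1: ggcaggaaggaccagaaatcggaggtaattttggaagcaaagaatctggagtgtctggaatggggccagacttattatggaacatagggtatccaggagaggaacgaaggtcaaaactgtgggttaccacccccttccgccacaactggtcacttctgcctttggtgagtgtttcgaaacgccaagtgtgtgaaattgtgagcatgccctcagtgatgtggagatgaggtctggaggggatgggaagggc
The Slc9b2 window lies at chr3:135307450-135307699 on the plus strand and holds an NFAT match from 31 to 27 bases before the start. The Slc37a2 window, at chr9:37255739-37255988 on the minus strand, holds an AP-1 match from 107 to 101 bases before the start and 3 NFAT matches. The Slc6a4 window (chr11:76998347-76998596, plus strand) and the Slc11a1 window (chr1:74374953-74375202, plus strand) hold none of these letters. Over all 32851 listed starts, 6.75% of such windows hold the AP-1 letters, 6.02% the E-box, 2.44% the PU.1 letters and 55.6% the NFAT letters. Among the 239 starts of the 180 members in the table the shares were 6.28%, 8.79%, 2.09% and 50.2%. These matches describe the letters and are no evidence of binding.

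The array values are signals per probe set in arbitrary units. The deposited arrays differed in overall level, with median signals of 36.7 at 0 h, 60.9 at 24 h and 62.7 at 72 h, so each array was centred on its median and all changes are relative to it. Signals under a floor of 29.6 units (the 40th percentile of all scaled signals) were set to that floor and have no order. A gene, read by the probe set of highest mean signal, counted as measured where it was above the floor on at least 1 of the arrays compared. It was called higher or lower at a 2-fold difference, and the verbs rose and fell below mean such a call. There were no replicates, no test and no p-value. The only error at hand is the technical SD between probe sets of the same gene, in log2 units 0.41 for the first day, 0.49 for the whole course and 0.36 for the late step from 24 to 72 h, with 1 array per time. Among members with a second usable probe set it was 0.35, 0.46 and 0.42, and it leaves out the spread between cultures. Markers of the labels' cell types were compared between 0 and 72 h, and markers of other cells were present too. At 0 h the neutrophil marker S100a9 stood at 4924 and the platelet marker Pf4 at 6085. All 9 osteoclast markers on the array were higher at 72 h than at 0 h, among them the transcription factor Nfatc1 (3.82-fold) and the protease Ctsk (50.7-fold), and 8 of 11 macrophage markers were lower. Because bulk cultures were measured, fewer cells of a type and less RNA per cell cannot be told apart.

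Many members were not detected above the floor, and those that were moved in both directions. In all, 92 of the 229 members (40.2%) stayed under the floor at every time, against 29.4% of all genes, and 110 were above it throughout. At 24 h against 0 h, 20 of 130 measured members (15.4%) were higher and 14 (10.8%) lower, beside 13.2% and 9.22% of all measured genes. At 72 h against 0 h, 21 of 132 (15.9%) were higher and 18 (13.6%) lower, beside 12.5% and 12.8% of all genes. From 24 to 72 h, 17 of 132 (12.9%) were higher and 10 (7.58%) lower, beside 6.92% and 10% of all genes. The first 4 shares lie near those of all genes and say nothing particular of solute carriers, and the difference in the late step was not tested. The 24 and 72 h comparisons share the 0 h array, so their values are given side by side and not as repeated evidence.

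The members' median log2 difference was -0.00 at 24 h, 0.08 at 72 h and 0.04 for the late step, beside 0.12, -0.01 and -0.14 over all measured genes. The 24 h median lay so near 0 that its sign turned under 5 of the 8 alternatives, reaching 0.65 on the deposited scale and at most 0.07 under the other 4, while trimmed mean and quantile scaling kept it below 0 (-0.19 and -0.09). The sign also turned at 72 h after trimmed mean scaling (-0.04), and for the late step without multi-transcript probe sets (-0.05) or without a floor (-0.07). The deposited scale moved the median of all measured genes at 24 h from 0.12 to 0.78, trimmed mean scaling to -0.06 and quantile normalization to 0.00. At 24 h the higher calls made up 58.8% of the members' calls, and 84.0%, 41.0% and 47.2% under these 3 scalings. At 72 h the share was 53.8% and reached 83.9% on the deposited scale. For the late step it was 63.0%, and 73.1% after trimmed mean scaling and 75.0% after quantile normalization. Over all genes the higher calls made up 58.8% at 24 h, 49.4% at 72 h and 40.9% in the late step, before any alternative. The spread among members was wide, with an SD over genes of 1.10 at 24 h and 1.28 at 72 h, against 0.91 and 1.06 over all genes.

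**Figure D1:**
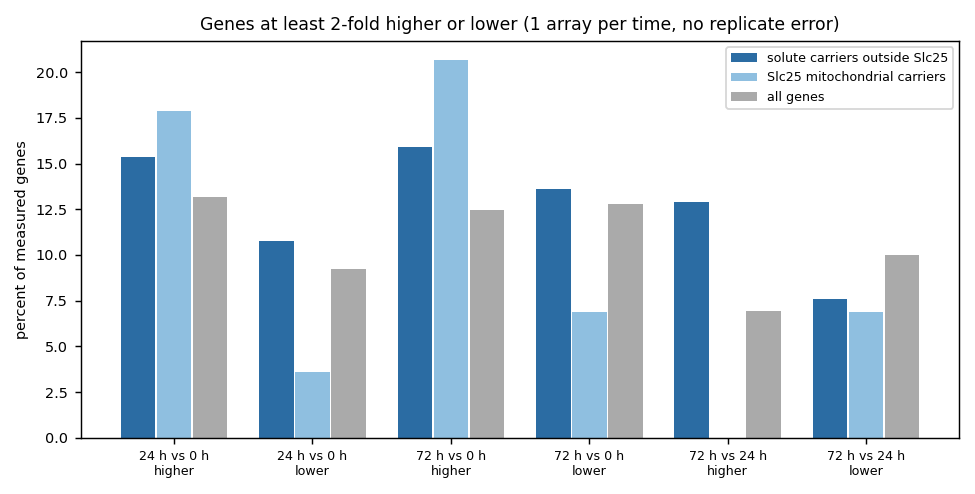
Percent of measured genes at least 2-fold higher or lower in each comparison, for the solute carriers outside Slc25, the Slc25 carriers and all genes of the array. Bars start at 0 and have no error bar because there was 1 array per time; the member bars lie near those of all genes except for the higher calls of the late step (12.9% against 6.92%).

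**Figure D2:**
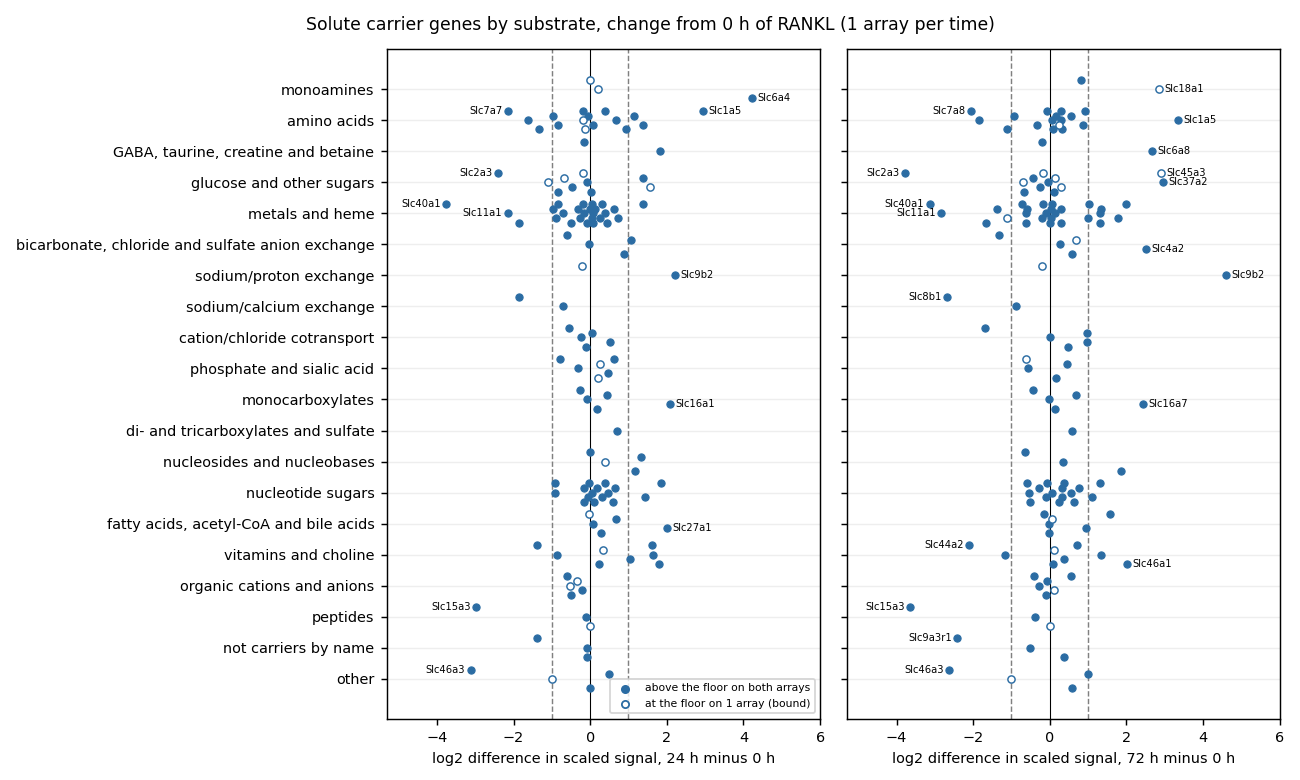
Log2 difference in scaled signal for each measured member by substrate, 24 h minus 0 h (left) and 72 h minus 0 h (right). Each point is 1 gene, open points are bounds with 1 array at the floor, dashed lines mark the 2-fold rule, and genes beyond 4-fold are named; within most substrates a few members stand far out while the rest lie between the dashed lines.

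The sodium/proton exchanger Slc9b2 and the bicarbonate/chloride exchanger Slc4a2 rose, each the only member called higher in its substrate group. Slc9b2, an exchanger long known from osteoclasts, had scaled signals of 105 at 0 h, 483 at 24 h and 2519 at 72 h. It rose at each step, 4.60-fold and then 5.22-fold, a log2 difference of 4.59 ± 0.49 (technical SD) over the whole course. Slc4a2, the main chloride-for-bicarbonate exchanger of osteoclasts, went from 342 to 717 and 1945. Its 2.10-fold difference at 24 h was lost after trimmed mean or quantile scaling (log2 0.87 and 0.89), while the 5.69-fold rise at 72 h and the 2.71-fold rise in the late step held under every alternative run. Each of these genes is read by a single probe set.

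Other members of these families were mostly under the floor. Of 15 bicarbonate, chloride and sulfate exchangers, 10 stayed under the floor at every time, among them the red cell exchanger Slc4a1. Slc4a5, a sodium bicarbonate cotransporter, fell from 118 to 46.6 by 72 h (2.53-fold), passing 77.8 at 24 h. The sulfate carrier Slc26a2 had signals of 166, 305 and 198 and stayed within 2-fold. Of 3 sodium/proton exchangers, Slc9b1 was under the floor throughout and Slc9a8 was above it only at 0 h, at 34.3. Among partner genes of the acid route, Car2, the carbonic anhydrase that makes bicarbonate and protons, rose from 75.4 to 522 and 1457. Clcn7, the chloride/proton exchanger of the resorbing membrane, stood at 161, 158 and 1031, so its rise lay wholly in the late step, 6.42-fold over 0 h. The other 4 measured chloride channels and exchangers (Clcn3, Clcn4, Clcn5 and Clcn6) stayed within 2-fold at 24 and 72 h.

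**Figure D3:**
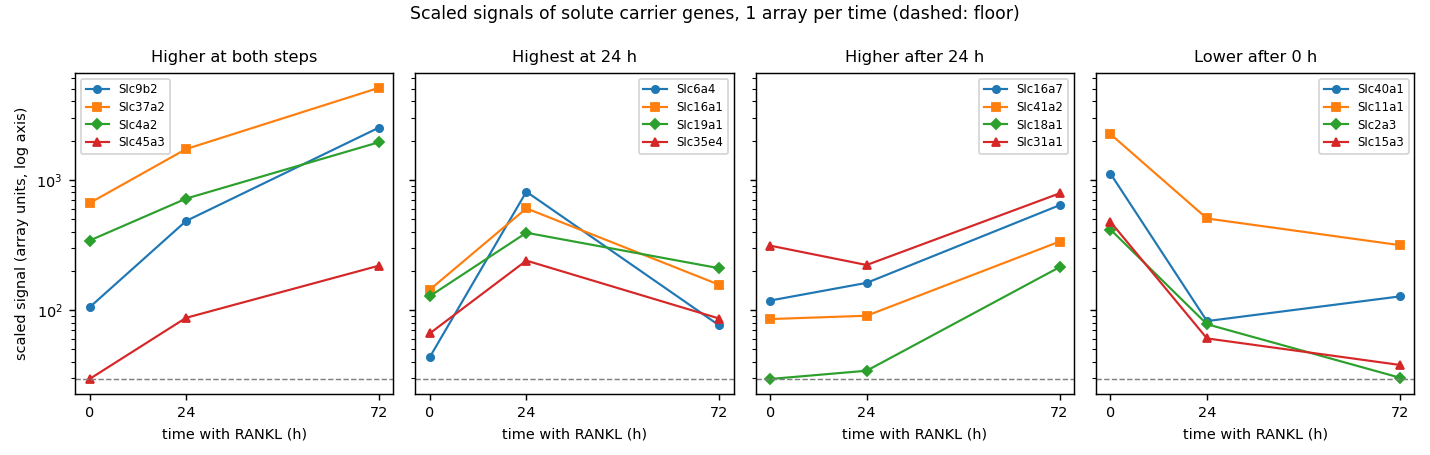
Scaled signal on a log axis against hours with RANKL for 16 members in 4 panels, 1 array per time and no error bars, with the floor of 29.6 units dashed. The panels were arranged after the values were seen and show genes higher at both steps (Slc9b2 from 105 to 2519), highest at 24 h (Slc6a4 at 811), higher after 24 h (Slc18a1 up to 214) and lower after 0 h (Slc40a1 down from 1115).

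Sugar carriers split, with Slc37a2 and Slc45a3 higher and the glucose carrier Slc2a3 lower. Slc37a2, a sugar phosphate exchanger of internal membranes, had signals of 663, 1722 and 5089. It rose 2.60-fold at 24 h and 2.95-fold more by 72 h, 7.68-fold in all, on 1 probe set that reads several transcripts of the gene. Slc45a3, a putative sugar carrier, came from under the floor to 87.2 and 219, at least 2.95-fold and at least 7.42-fold higher. Both of its probe sets showed this, and the rise from 24 to 72 h was 2.52-fold by the brighter one and within 2-fold (log2 0.70) by the other.

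The facilitative glucose carriers of the Slc2 family did not move as 1 group. Slc2a3, a carrier of high affinity for glucose, dropped from 415 to 77.9 and 30.2, the last just above the floor. It was 5.33-fold lower at 24 h and 13.7-fold lower at 72 h. A second probe set went the same way, from 199 to 37.0 and then under the floor, and 2 further ones were under the floor at every time. With all 4 averaged, both later values were set to the floor. The log2 difference of -0.93 at both times is then a bound short of the rule and does not show a smaller fall. Slc2a1, the basal glucose carrier, had signals of 302, 286 and 291, and its 3 probe sets all stayed within 2-fold. Slc37a3 was at least 2.15-fold lower at 24 h and at least 2.33-fold higher again at 72 h than at 24 h. Its other probe set did not show either change, and the 24 h call was also lost on the deposited scale (a bound of log2 -0.62). Of 22 sugar carriers, 12 were above the floor at some time. At 24 h 2 of 10 measured were higher and 2 lower, and at 72 h 2 of 12 were higher and 1 lower. The shares over all measured genes were 13.2% higher and 9.22% lower at 24 h, and 12.5% and 12.8% at 72 h.

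Among amino acid carriers the glutamine carrier Slc1a5 stood out. Its signals were 105 at 0 h, 809 at 24 h and 1057 at 72 h, 7.73-fold and 10.1-fold above the start (log2 2.95 ± 0.41 and 3.34 ± 0.49, technical SD). Most of that difference was in place by 24 h, and the late step was within 2-fold. Slc1a4, a related carrier of small neutral amino acids, was near the floor at 32.5, under it at 24 h and at 60.9 at 72 h, at least 2.06-fold up in the late step. Its 2 other probe sets stayed short of 2-fold there (log2 0.64 and 0.71).

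Of the Slc7 light chains, which pair with the heavy chain Slc3a2 to exchange amino acids, Slc7a5 and Slc7a6 were higher at 24 h, Slc7a7 and Slc7a8 were lower, and Slc7a11 was neither. Slc7a5, which brings in large neutral amino acids, had signals of 116, 255 and 141. It was 2.20-fold higher at 24 h, a call lost after trimmed mean or quantile scaling (log2 0.94 and 0.98). Slc7a6, an exchanger of cationic for neutral amino acids, went 93.9, 245 and 115, 2.61-fold up and then 2.13-fold down. Its second probe set moved the same way but stayed within 2-fold (log2 0.95 and -0.40), and with both averaged the later fall was short of 2-fold (log2 -0.74). Slc7a7, which exchanges the same kinds of amino acid, fell from 505 to 114 and 141, 4.43-fold at 24 h. Slc7a8, another carrier of neutral amino acids, fell from 241 to 78.1 and 57.8, 3.08-fold at 24 h and 4.17-fold at 72 h. On the deposited scale the 24 h difference of Slc7a8 was short of 2-fold (log2 -0.90). Slc3a2 itself dipped from 1467 to 813 and returned to 1829, within 2-fold of 0 h at both times and 2.25-fold higher in the late step. Slc7a11, the cystine/glutamate exchanger, went from 59.3 to 52.0 and 31.1, within 2-fold.

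Other amino acid carriers moved at a single step. Slc38a1, a sodium-coupled glutamine carrier, had signals of 98.3, 187 and 92.6, and its 2.01-fold fall in the late step was lost under all 3 other scalings (log2 -0.97, -0.94 and -0.89). Slc6a17, a vesicle carrier of neutral amino acids, stood at 67.3, 34.3 and 122, 3.54-fold higher in the late step. With the floor at the 60th percentile its 24 h signal was set to the floor, leaving a bound of 0.40 on the log2 scale. Slc66a1, which takes cationic amino acids out of lysosomes, fell from 266 to 106 and 123, 2.52-fold at 24 h. Of 38 members for amino acids, 21 were under the floor throughout. At 24 h 3 of 16 measured were higher and 3 lower, at 72 h 1 of 17 was higher and 3 lower, and in the late step 3 of 17 were higher and 2 lower. Over all measured genes 13.2% were higher and 9.22% lower at 24 h, and 12.5% and 12.8% at 72 h. In the late step these shares were 6.92% and 10%. The median log2 difference of the amino acid carriers was -0.10 at 24 h and 0.17 at 72 h.

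The monoamine carriers gave a transient peak and a late rise. Slc6a4, the serotonin carrier of the plasma membrane, had a signal of 43.6 at 0 h, 811 at 24 h and 76.1 at 72 h. It was 18.6-fold higher at 24 h, log2 4.22 ± 0.41, and then 10.7-fold lower from 24 to 72 h, on 1 probe set. Slc18a1, a carrier that loads monoamines into vesicles, was under the floor at 0 h, at 34.2 at 24 h and at 214 at 72 h. It was at least 7.23-fold higher than at 0 h, and the late step was 6.25-fold. Slc6a3, the dopamine carrier, stood at the edge of the floor at 24 h and under it otherwise, and Slc6a2, Slc22a2 and Slc29a4 were under it at every time.

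Platelets and mast cells also carry serotonin, so their markers are given beside Slc6a4. All 7 platelet and megakaryocyte markers on the array were above the floor at each time. Their summed signal went from 9372 to 1864 and then 899, and all 7 were lower at 24 h. Pf4, platelet factor 4, was 6.10-fold lower at 24 h. Of 10 mast cell and basophil markers 2 were above the floor at each time, with sums of 142, 143 and 206. Kit and Gata2 were the 2 at 24 h, and the mast cell protease Cpa3 and the IgE receptor chains Fcer1a and Ms4a2 were under the floor at every time. The part of platelets or mast cells in the Slc6a4 signal was not tested. The basophil protease Mcpt8 came from under the floor to 87.7 at 72 h, at least 2.97-fold higher, when Slc18a1 was highest, and its part in the result was not tested.

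Of 27 metal and heme carriers, 26 were above the floor at some time. Carriers of iron export, phagosomes and heme release fell by 24 h. Slc40a1, the iron exporter ferroportin, went from 1115 to 82.2 and 127, 13.6-fold lower at 24 h and 8.76-fold at 72 h. Its second probe set gave 503, 52.5 and 102. Slc11a1, the phagosomal metal carrier of macrophages, fell from 2243 to 505 and 315, 4.44-fold and 7.12-fold. Slc48a1, which releases heme from lysosomes, fell from 1274 to 353 and 486, 3.61-fold at 24 h, and its second probe set went from 1253 to 267 and 336. These were the 3 lower calls among 26 measured at 24 h. The only higher one was the zinc carrier Slc39a13, at 128, 334 and 436, 2.61-fold and then 3.41-fold over 0 h. Of all measured genes 13.2% were higher and 9.22% lower at 24 h.

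By 72 h a carrier each of copper, magnesium and iron import was higher by its brightest probe set. Slc31a1, the copper importer, had signals of 312, 222 and 787, 2.52-fold over 0 h and 3.55-fold over 24 h. Its second probe set went from 363 to 184 and 500, so its rise over 0 h was within 2-fold (log2 0.46) while that over 24 h was not (1.44). The related Slc31a2 stayed within 2-fold by its brighter probe set, at 217, 118 and 228. Its other probe set went from 131 to 54.9 and 392, 3.00-fold over 0 h and 7.15-fold over 24 h. Slc41a2, a magnesium carrier, stood at 85.3, 90.4 and 336, a 3.71-fold rise that fell wholly in the late step. Slc11a2, the iron importer of endosomes, went from 185 to 228 and 459, 2.48-fold over 0 h. Its other 2 probe sets gave 1.12 and 0.83 on the log2 scale, and without multi-transcript probe sets the call was lost. Slc39a11 rose 2.48-fold and Slc30a9 2.03-fold, both members of zinc carrier families. With Slc39a13 these were the 6 of 26 higher at 72 h, beside 5 lower. Of all measured genes 12.5% were higher and 12.8% lower at 72 h, and the difference was not tested. Of 8 stromal and osteoblast markers, 7 were above the floor at 0 and 72 h and 6 at 24 h, and their summed signal went from 2238 to 2347 and 7014. The collagens Col1a1 (6.98-fold), Col1a2 (from 913 to 3469) and Col3a1 (2.34-fold) were higher at 72 h, the proteoglycan Dcn was 2.78-fold lower, and the osteoblast factor Sp7 stayed within 2-fold. The part of such cells in the members higher at 72 h was not tested.

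The other lower calls at 72 h were zinc importers. Slc39a4 fell from 177 to 99.0 and 55.9, 3.16-fold. Slc39a8, which imports zinc and manganese, dropped from 63.8 to 32.7 and under the floor, at least 2.16-fold lower. On the deposited scale the bound was short of 2-fold (log2 -0.62). Slc30a1, the zinc exporter of the plasma membrane, dipped to 39.9 from 65.8 and was back at 80.9, 2.03-fold up in the late step. Slc39a14, which carries zinc and iron, stayed within 2-fold at 194, 254 and 236. The median of the 26 metal and heme carriers was -0.04 at 24 h and 0.01 at 72 h, so the middle of the group lay near 0. Among partner genes of iron uptake, the transferrin receptor Tfrc went from 1664 to 2206 and 5340, 3.21-fold higher at 72 h, and the metal reductase Steap4 came from under the floor to 663, at least 22.4-fold higher.

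**Figure D4:**
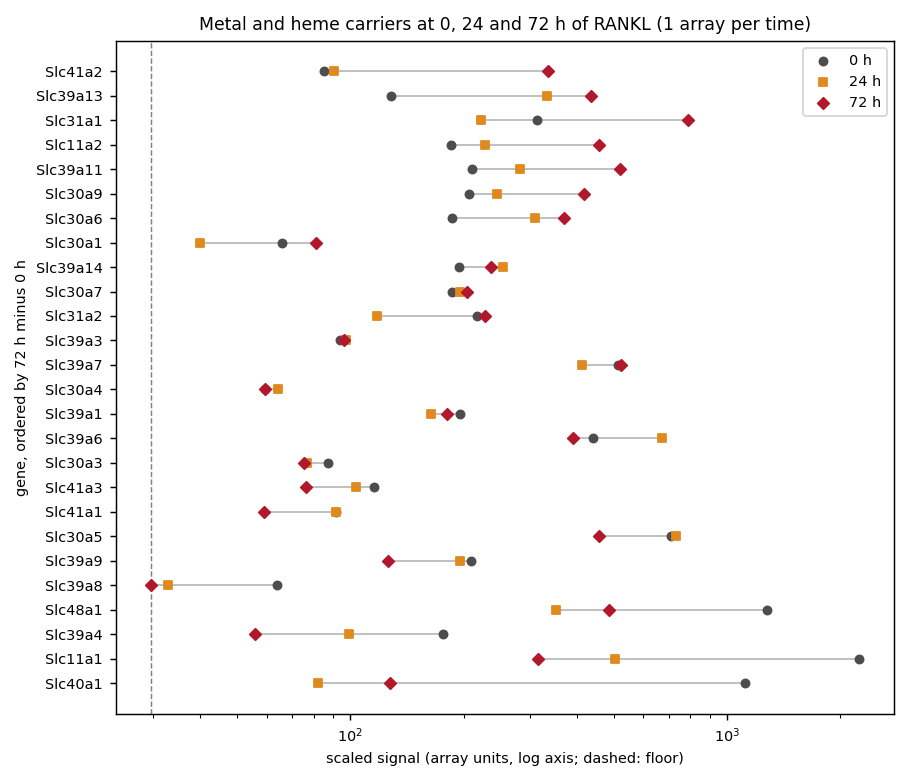
Scaled signals on a log axis of the 26 metal and heme carriers above the floor on at least 1 array, at 0, 24 and 72 h, 1 array per time, ordered by the change from 0 to 72 h. Slc40a1, Slc11a1 and Slc48a1 have their 0 h point far to the right, Slc41a2 and Slc31a1 their 72 h point, and most others have all 3 points close together.

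Macrophage markers fell over the same interval as these members. The summed signal of 11 macrophage markers went from 30918 to 12045 and 16286, with 8 of 11 lower at each time. Csf1r, the M-CSF receptor, stayed within 2-fold, and Cd68, a lysosomal membrane protein, went the other way, from 2868 to 2438 and 6699, 2.34-fold higher at 72 h. The sum of 10 neutrophil and precursor markers went from 18825 to 12821 and 1356, with 3 and then 10 of 10 lower. The part of either cell type in the lower solute carriers was not tested.

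Carriers of lysosomes and of mitochondria were among those that fell. Slc15a3, a lysosomal carrier of peptides and histidine, had signals of 476, 60.6 and 37.9, 7.85-fold and 12.6-fold lower than at 0 h. Its relative Slc15a4 stayed within 2-fold at 255, 235 and 194. Slc46a3, another lysosomal carrier, fell from 349 to 40.2 and 56.5, 8.69-fold at 24 h. Slc8b1, the sodium/calcium exchanger of mitochondria, fell from 547 to 151 and 85.9, 3.63-fold and then 6.37-fold. The urea carrier Slc14a1 was at 59.2 at 0 h and under the floor later, a bound that lies right at the rule, and its second probe set was within 2-fold (log2 -0.40). Slc9a3r1, a scaffold protein that anchors exchangers to the cytoskeleton, fell from 658 to 253 and 123. All 3 of its probe sets were lower, 2 of them past 2-fold at 24 h and all at 72 h (5.35-fold by the brightest). The 24 h call was lost on the deposited scale (log2 -0.65) and without multi-transcript probe sets (log2 -0.96). Its further fall in the late step, 2.06-fold, was lost under 5 of the 8 alternatives. Slc29a3, a lysosomal nucleoside carrier, stayed within 2-fold at 428, 428 and 271.

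Creatine, monocarboxylate and fatty acid carriers were among those that rose. Slc6a8, the creatine carrier, had signals of 290, 1031 and 1843, 3.56-fold and 6.35-fold over 0 h, and its second probe set gave 211, 1118 and 1350. Slc16a1 and Slc16a7, both of which carry lactate and pyruvate, rose at different times. Slc16a1 went 143, 604 and 156, 4.21-fold up at 24 h and 3.87-fold down again. Slc16a7 went 118, 162 and 638, within 2-fold at 24 h and 5.40-fold up at 72 h. The other 3 measured monocarboxylate carriers (Slc16a3, Slc16a6 and Slc16a11) stayed within 2-fold in every comparison. Slc27a1, a fatty acid carrier, went from 67.0 to 268 and 198, 4.01-fold higher at 24 h.

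Several vitamin carriers were higher at 24 h. Slc19a1, the reduced folate carrier, went from 128 to 392 and 209, 3.07-fold higher at 24 h, with a second probe set at 59.5, 223 and 134. Slc46a1, the proton-coupled folate carrier, went from 35.8 to 125 and 146, 3.49-fold and 4.07-fold. With the floor at the 60th percentile its 0 h signal was set to the floor, leaving bounds of 0.44 and 0.66 on the log2 scale. The thiamine carrier Slc19a2 was 2.05-fold higher at 24 h, close to the rule, and its second probe set was within 2-fold (log2 0.33). Slc44a1, a choline carrier, rose from 423 to 1317 and 1068, 3.11-fold at 24 h. Its second probe set, at 40.5, 58.5 and 148, was within 2-fold at 24 h (log2 0.53) and higher at 72 h. By its brightest probe set the related Slc44a2 fell from 758 to 287 and 177. Of the 3 probe sets of Slc44a2, 2 fell past 2-fold and the dimmest did not, and with all averaged the 24 h difference was -0.87 on the log2 scale, and by the brightest alone it was -0.67 on the deposited scale. In this group 4 of 8 measured were higher and 1 lower at 24 h, and 2 higher and 2 lower at 72 h, beside 13.2% higher and 9.22% lower of all measured genes at 24 h and 12.5% and 12.8% at 72 h. The other lower call at 72 h was the ascorbate carrier Slc23a2 (2.24-fold), whose dimmer probe set had a log2 difference of 0.58 in the other direction.

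For nucleosides, Slc29a1, the equilibrative carrier of the plasma membrane, rose from 225 to 504 and 811, 3.60-fold at 72 h. Its 2.24-fold difference at 24 h was just short of the rule after trimmed mean scaling (log2 0.96). Slc43a3, a purine base carrier, went 82.0, 207 and 103, 2.52-fold up at 24 h, and its later fall lay right at 2-fold. Among other members, Slc7a5, Slc7a6, Slc16a1, Slc19a1 and Slc35e4 also had their highest signal of the 3 times at 24 h. So did Slc27a1 and Slc44a1, and members with such a peak were not counted.

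The 18 Slc35 members were grouped by symbol as nucleotide sugar carriers, which feed glycosylation in the Golgi. The substrate of each one was not checked. Of these members 16 were measured, and 14 stayed within 2-fold at 24 h and also at 72 h. Over all genes 6549 of 8439 and 6395 of 8558 did so. The higher Slc35 members at 24 h were Slc35e4 (66.3, 240 and 86.0, 3.62-fold) and Slc35a4 (148, 395 and 364, 2.68-fold). At 72 h they were Slc35a4 (2.46-fold) and Slc35a3 (2.14-fold), and no member was lower at either time. Slc35e4 was back within 2-fold at 72 h by its brighter probe set and at 1.49 on the log2 scale by the other. In the late step Slc35f5 was 2.35-fold higher and Slc35d1 2.37-fold lower. With the floor at the 60th percentile the 72 h signal of Slc35d1 was set to the floor, leaving a bound of log2 -0.17. Among cation/chloride cotransporters, Slc12a7, which exports potassium with chloride, went 358, 301 and 697, 2.31-fold higher in the late step by both probe sets. Slc12a9 fell from 300 to 204 and 92.2, 3.25-fold at 72 h, and fell short of 2-fold on the deposited scale (log2 -0.93). The phosphate carrier Slc20a1 (308, 477 and 421) and the carnitine carrier Slc22a5 (124, 107 and 116) stayed within 2-fold. By their brightest probe sets none of the 8 members grouped under phosphate and sialic acid was called in any comparison, with 4 to 6 measured. Of all measured genes 13.2% were higher and 9.22% lower at 24 h, and 12.5% and 12.8% at 72 h. In the late step these shares were 6.92% and 10%. With so few measured, the lack of calls says nothing particular of this group. A second probe set of the phosphate carrier Slc20a2 came from under the floor to 35.1 and 91.6, at least 3.10-fold higher at 72 h. Of 18 carriers for organic cations and anions 12 were under the floor throughout. The only call among the 5 or 6 measured was Slc22a4, 2.21-fold higher in the late step, beside the same shares of all genes. Slc66a2, at 193, 271 and 386, was right at the rule at 72 h and short of it after trimmed mean scaling (log2 0.87).

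Other probe sets of the same gene bear on these calls where they exist. Of the 34 members called at 24 h, 18 had a single probe set and 16 had another one that was measured, which gave the same call in 11. At 72 h another probe set gave the same call in 13 of 16, and in the late step in 2 of 9. In no case did another probe set give the opposite call. The other late-step calls of such genes rest on 1 probe set.

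Of the other transporter families, the Slc25 carriers and the ABC transporters had calls in both directions at 24 and 72 h. The calls below stand beside 13.2% higher and 9.22% lower of all measured genes at 24 h, and 12.5% and 12.8% at 72 h. Of 33 Slc25 carriers of mitochondria, 28 were measured at 24 h with 5 higher and 1 lower, and 29 at 72 h with 6 higher and 2 lower. Their median log2 difference was 0.29 at 24 h and 0.31 at 72 h, beside -0.00 and 0.08 in the other solute carriers, and the difference between the groups was not tested. Of 26 measured ABC transporters 3 were higher and 4 lower at 24 h, and of 25 at 72 h 3 were higher and 6 lower. Among them the phospholipid carrier Abcb4 rose from 104 to 449 and 948, and the cholesterol exporter Abca1 fell from 2210 to 755 and 492. Of 16 measured P-type ATPases none was higher and 4 were lower at 24 h, and of 17 at 72 h 2 were higher and 3 lower. Atp2c1, a calcium and manganese pump of the Golgi, went from 308 to 321 and 1016. All 8 aquaporins were under the floor at every time, and of 11 organic anion transporters of the Slco family at most 2 were above it on any array.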

How the data were processed

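The authors' deposited values are linear microarray intensity signals, 1 per probe set and array, made with MAS5 per the submitters' processing notes (no version of it is given). Per the labels' protocols, 5 µg of total RNA gave biotin-labelled cRNA. Of 22690 probe sets, 64 controls were left out. The platform annotation of 2016 gave 1 symbol for 20380, several for 691 and none for 1555, and all 354 member probe sets matched a RefSeq gene by identifier. Log2 signals were centred on each array's median, floored and compared as described in the results, with Python 3.11.15, numpy 2.4.6 and pandas 2.3.3, and the calculation was tested on simulated data. The rule for genes to name took, per comparison, the 10 largest 2-fold changes each way above the floor and up to 6 bounds each way, with the gene of highest mean signal in each of 20 substrate groups and a list of known genes, 57 in all. Further members were named after their values were seen. Members, groups and lists were chosen with earlier results of these data known. Precision is limited by the number of arrays, 1 per time. The 8 alternatives changed the scaling, the floor or the probe set that stands for a gene.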

Additional observations from a re-analysis of the deposited data

How the results depend on the processing

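On the deposited scale, 42 of 130 measured members were higher and 8 lower at 24 h against 0 h (20 and 14 after median centring). Of all measured genes 39.0% were higher and 3.71% lower there, and the members' median log2 difference was 0.65. At 72 h 52 of 133 members were higher and 10 lower (21 and 18), beside 35.0% and 5.33% of all genes. The members' median was 0.77. Trimmed mean scaling gave 23 of 129 lower at 24 h (12.5% of all genes). Quantile normalization gave 6 of 133 lower in the late step (8.23% of all genes), against 17 higher and 10 lower in the main setting. With no floor 52 were higher and 30 lower at 24 h, 46 and 43 at 72 h, and 38 and 31 in the late step; with the floor at the 20th percentile 32 were higher at 24 h, and 29 higher and 22 lower in the late step, since more dim genes were compared. Averaging probe sets gave 6 of 121 lower in the late step (8.89% of all genes). Leaving out multi-transcript probe sets gave 8 of 109 lower at 24 h (9.28% of all genes), with fewer genes measured. In the late step it gave 11 of 110 higher (6.49% of all genes). The other counts stayed within 1.5 times. Of 88 calls of the genes named by rule, none changed sign under these 8 alternatives; 88 kept their call with the lower or no floor, 81 of 88 under trimmed mean and under quantile scaling, 76 of 88 on the deposited scale, 72 of 86 with averaged probe sets, 75 of 79 with the floor at the 60th percentile and 63 of 70 without multi-transcript probe sets. With 1 array per time, leaving out a replicate was not possible. Signals near the floor limit Slc14a1, Slc1a4, Slc39a8 and Slc37a3.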

Other observations

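Probe sets that name a solute carrier together with another gene were left out of the members. Of the 3 such probe sets, 1 was above the floor, the one shared by Slc9a7, an organelle sodium/proton exchanger, and a transcript of unknown function, at 47.9 at 0 h and under the floor at 24 and 72 h.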
